A study of Mus musculus with 2 samples.

Results

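Gene deserts are long stretches of chromosome without annotated genes, and 10681 H3K4me3 peaks of mouse prospermatogonia lay in them. A peak was taken as a desert peak when its summit, on chromosomes 1 to 19 of mm10, was outside every annotated gene and over 100 kb from the nearest end of any annotated gene, pseudogenes and noncoding RNA genes included. These peaks were 8.72% (Wilson interval 8.56 to 8.88) of the 122479 autosomal peaks and belonged to a list of 135064 peaks in all. The rule uses position alone and no value or density of a peak, but it was chosen with earlier results of these data known.

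The study made 1 H3K4me3 CUT&RUN library and 1 IgG library, each from 130000 mouse prospermatogonia that were positive for Oct-GFP in a sort at E17.5. No other genotype or treatment is given, the strain and the pooling of embryos are not stated in the labels, and there were no replicates. In CUT&RUN a nuclease tethered by an antibody releases the bound chromatin for sequencing. The H3K4me3 peak list was analysed, and the IgG library was not analysed here.

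H3K4me3 is laid down by the SET1 and MLL methyltransferase complexes and is best known at promoters, above all at unmethylated CpG islands. Distal regulatory elements usually carry more H3K4me1 than H3K4me3, and many of those that control developmental genes lie in deserts next to the gene. Prospermatogonia are the fetal male germ cells that arrest division and remethylate their DNA before birth. H3K4 methylation repels the DNMT3L and DNMT3A proteins that carry out this step.

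Peaks within 1 kb of an annotated gene end were found for 16112 of 21519 protein-coding genes on chromosomes 1 to 19 and X (74.9%). All 8 germ cell markers, Ddx4, Dazl, Dppa4, Sall4, Lin28a, Mael, Tex101 and Tdrd1, had such a peak, with a highest fold between 3.18 and 7.64. Of 6 Leydig cell markers 2 had one, Cyp11a1 with a highest fold of 9.90 and Lhcgr with 7.34. Insl3, Cyp17a1, Hsd3b1 and Star had no peak at all. Sertoli markers had one in 4 of 6 cases, with a highest fold between 3.33 and 8.32. The other Sertoli markers, Gata4 and Amhr2, were overlapped by 14 and 3 peaks away from their ends. Endothelial and blood markers had one in 4 of 7 cases, with a highest fold between 3.88 and 11.1. These short lists were not tested against the share over all protein-coding genes. Whether other cells of the fetal testis contributed to desert peaks was not tested.

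Desert peaks were smaller than those at gene ends and close in size to other peaks away from genes. A summit in a desert had a median pileup of 22 fragments, with quartiles of 16 and 31 and a range of 9 to 161. The median was also 22 for intergenic peaks 50 to 100 kb from a gene, 24 for those 5 to 50 kb away, 26 inside genes over 5 kb from any end and 38 for summits within 1 kb of a gene end. Median width followed the same order, at 496 bp in deserts (interval 486 to 507), 506 bp at 50 to 100 kb, 544 bp at 5 to 50 kb, 577 bp inside genes and 816 bp at gene ends. Widths of desert peaks ran from 158 to 2498 bp.

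Relative to their surroundings, desert peaks stood out as much as other distal peaks. The authors' fold compares summit pileup with the background that the peak caller estimated around it, and its values match the ratio after 1 is added to both. It had a median of 6.42 in deserts, with quartiles of 5.004 and 8.29 and a range of 2.52 to 30.6. It was also 6.42 at both intergenic distances, 6.44 inside genes and 5.61 at gene ends. A shared value arises because many peaks have the lowest possible background: a fold of 6.42 is a pileup of 19 fragments plus 1, divided by a background of 2.11 plus 1, a combination that 265 desert peaks had exactly. The lowest background held for 4779 desert peaks (44.7%, 43.8 to 45.7), against 28.6% of all autosomal peaks and 8.32% of gene-end peaks. Median background was 2.26 fragments in deserts and 5.74 at gene ends, so equal folds stand for fewer fragments in a desert.

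**Figure D1:**
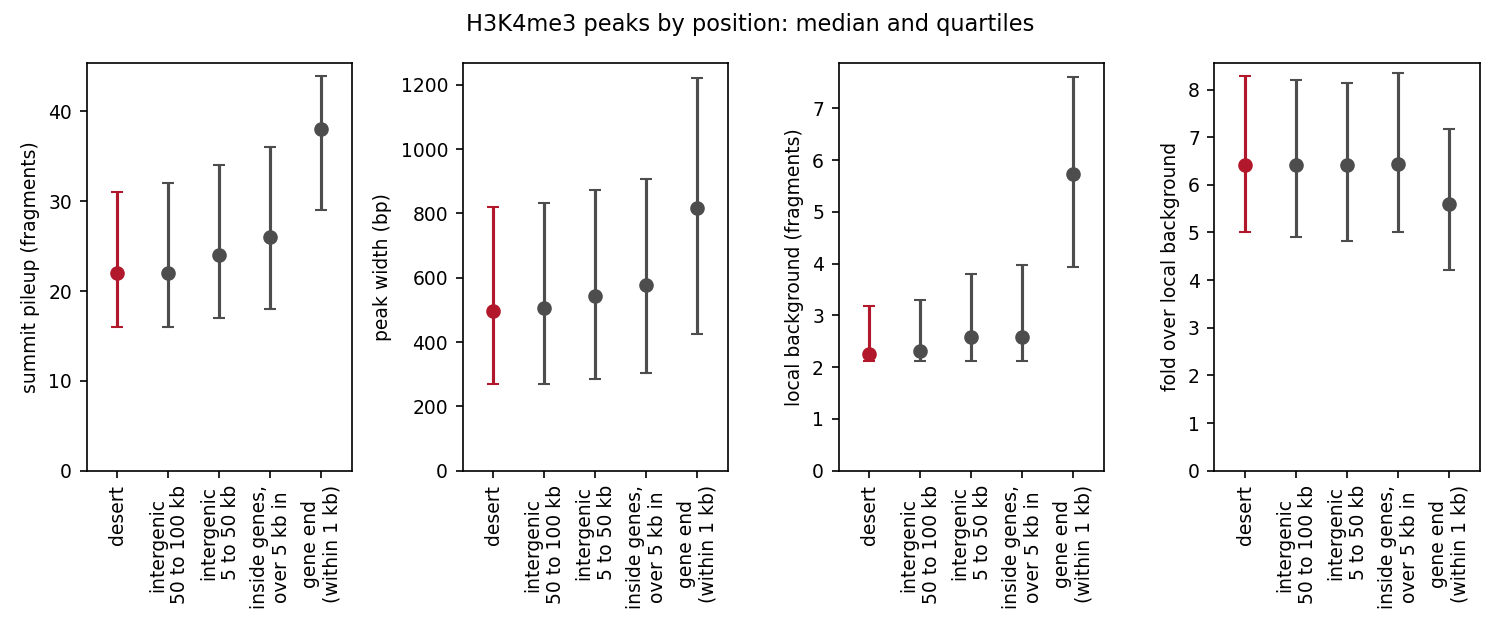
Median (point) and quartiles (bar) of summit pileup in fragments, width in bp, local background in fragments and fold, for desert peaks (red, left) and 4 other classes of autosomal peaks (grey). Median pileup, width and background are highest at gene ends, the desert pileup of 22 equals that of peaks 50 to 100 kb from a gene, and the fold is lowest at gene ends.

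Few desert peaks had the size of a typical gene-end peak. Width and pileup both at or above the medians of gene-end peaks were found in 1111 desert peaks (10.4%, 9.84 to 11.0), against 19.7% of all autosomal peaks and 37.1% of gene-end peaks themselves. A pileup of at least 40 fragments was reached by 1164 desert peaks (10.9%, 10.3 to 11.5), against 23.1% of all autosomal peaks. By contrast, 874 desert peaks (8.18%, 7.68 to 8.72) had a fold of at least 10, against 6.37% of all autosomal peaks and 3.52% of gene-end peaks. The lower backgrounds just given accompany these high folds, and their part in the difference was not tested.

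Within the deserts, width and pileup went together. Of the desert peaks 3117 were under 300 bp wide, with a median of 15 fragments and a median fold of 4.82. The 4736 peaks of 300 to 799 bp had a median of 22 fragments and a fold of 6.65. The 2828 peaks of 800 bp or more had a median of 35 fragments and a fold of 8.33, and 32.7% of them reached 40 fragments, compared with 0.192% of the narrowest class. Both measures come from the same fragments and are not independent.

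Peaks were more frequent per Mb in deserts than in the rest of the autosomes, but tall peaks, those of at least 40 fragments, were less frequent. Sequence over 100 kb from any gene came to 181 Mb of 2403 Mb (7.53%). It held 59.0 peaks per Mb, against 50.3 in the rest, a ratio of 1.17 (1.15 to 1.196). Peaks covered 3.37% of the desert sequence and 3.44% of the rest. The direction of this ratio turned with the height of the peaks counted. With summits of at least 15 fragments it was 1.08 (1.06 to 1.11), with at least 20 it was 0.928 (0.904 to 0.951), and with at least 40 it was 0.527 (0.497 to 0.559). Peaks of at least 20 fragments were 59.4% of desert peaks, against 73.8% of all autosomal peaks, so the excess in deserts lay in peaks below that height. Median background was 2.26 fragments for desert peaks and 3.33 for all other autosomal peaks. Its part in how many low peaks were called was not tested.

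**Figure D2:**
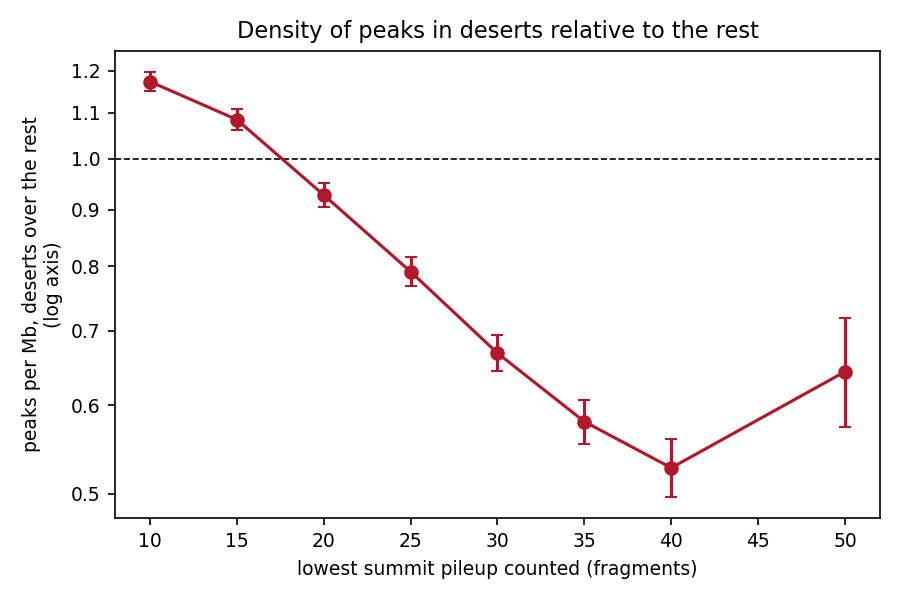
Ratio of peaks per Mb in deserts to peaks per Mb in the rest of chromosomes 1 to 19 (log axis) against the lowest summit pileup counted, with 95% exact binomial intervals. The ratio is 1.17 with all peaks from 10 fragments up, passes below the dashed line of equal density between 15 and 20, is 0.527 at 40 and 0.643 at 50.

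Density between genes did not simply decline with distance. It was 66.3 peaks per Mb within 5 kb of a gene and 50.9 at 50 to 100 kb. Inside the deserts it was 53.4 (51.9 to 55.0) at 100 to 150 kb, 57.4 at 150 to 200 kb, 62.9 at 200 to 300 kb and 76.3 (71.6 to 81.1) at 300 to 400 kb. The 202 peaks at 500 to 800 kb gave 86.8 per Mb (75.2 to 99.6), from 12 gaps between genes. Median pileup stayed between 19 and 22 fragments over these desert distances. Tall peaks had another profile, with 19.4 per Mb within 5 kb, 6.25 at 50 to 100 kb, and values from 5.96 to 9.02 in the deserts with intervals that overlap each other.

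**Figure D3:**
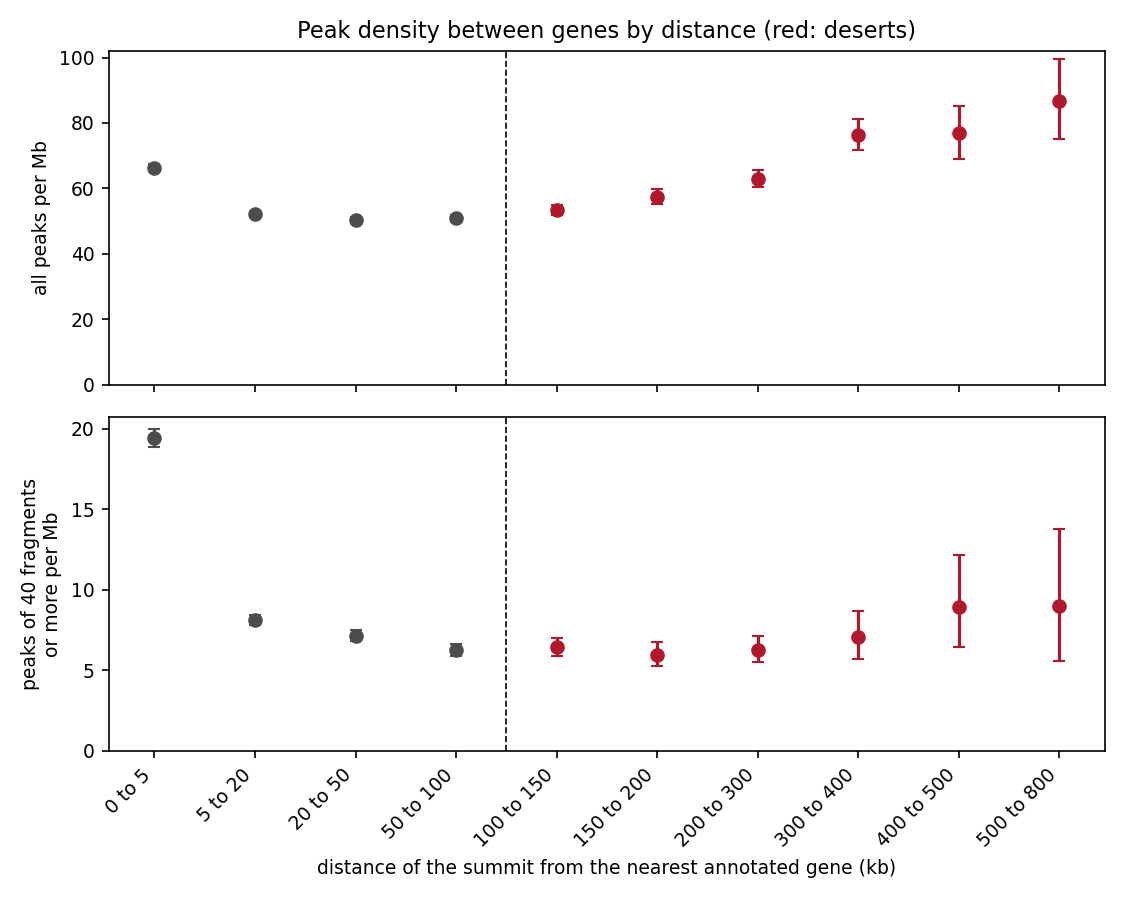
Peaks per Mb of intergenic sequence by distance of the summit from the nearest annotated gene in kb, for all peaks (top) and for peaks of 40 fragments or more (bottom), with 95% Poisson intervals; desert distances are red. All peaks are densest at 500 to 800 kb (86.8 per Mb) and tall peaks within 5 kb of a gene (19.4 per Mb).

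Only long deserts have sequence so far from genes, and long deserts were also denser as a whole. In deserts whose core, the sequence over 100 kb from any gene, measured 100 to 250 kb, there were 51.4 peaks per Mb (49.5 to 53.3). Cores of 250 to 500 kb had 59.3 (57.4 to 61.3), and the 61 cores of at least 500 kb had 73.5 (71.0 to 76.2). Within those 61 the density still differed by distance, at 67.5 per Mb (62.9 to 72.2) at 100 to 200 kb from a gene, 72.2 at 200 to 300 kb and 78.5 (74.5 to 82.7) at 300 to 800 kb.

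Most deserts carried at least 1 peak of any height, but fewer carried a tall one. There were 1153 deserts with a core, and 981 of them (85.1%, 82.9 to 87.0) held a peak, with a median of 4 and at most 117. A peak of at least 20 fragments was held by 79.0%, one of at least 30 by 66.1% and one of at least 40 by 46.8% (44.0 to 49.7). All 227 deserts with a core of at least 250 kb held peaks, and so did 97.95% of those of 100 to 250 kb. The longest core without one, 239 kb on chromosome 5, lay between the gene models Gm17019 and Gm21149, and the exact Poisson upper bound there was 15.5 peaks per Mb. Whether reads can be placed in that sequence was not tested. Of the 1153 deserts, 132 held 50% of the desert peaks, and the core length of these 132 is not given here. Length was itself uneven. Of 181 Mb of core, the 61 cores of at least 500 kb made up 42.5 Mb with 3124 peaks. The 166 cores of 250 to 500 kb made up 58.5 Mb with 3469 peaks. Neighbouring desert peaks had summits a median of 10.3 kb apart, and 3213 (30.1%, 29.2 to 31.0) were joined to another peak over a gap of up to 1000 bp, against 33.7% of intergenic peaks 5 to 50 kb from a gene, 52.0% of gene-end peaks and 38.9% of all autosomal peaks. Joined groups held at most 5 peaks and spanned at most 3272 bp.

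Chromosomes differed in how densely their deserts were marked. Desert density was highest on chromosome 14, at 78.6 peaks per Mb (73.4 to 84.2), followed by chromosome 3 at 70.3 and chromosome 1 at 68.4. It was lowest on chromosome 7, at 37.0 (31.0 to 43.9), followed by chromosome 18 at 38.1, chromosome 19 at 39.4 and chromosome 11 at 40.4. The rest of each chromosome varied less, from 44.7 per Mb on chromosome 9 to 57.0 on chromosome 17. Deserts were denser than the rest on 13 of 19 chromosomes, with an interval of the ratio above 1 on 10 and below 1 on 5. Chromosome 14 had the highest ratio, 1.61 (1.496 to 1.73), and chromosome 7 the lowest, 0.739 (0.617 to 0.878). Peaks of at least 40 fragments were less dense in deserts on all 19, with ratios from 0.110 on chromosome 19 to 0.760 on chromosome 14.

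**Figure D4:**
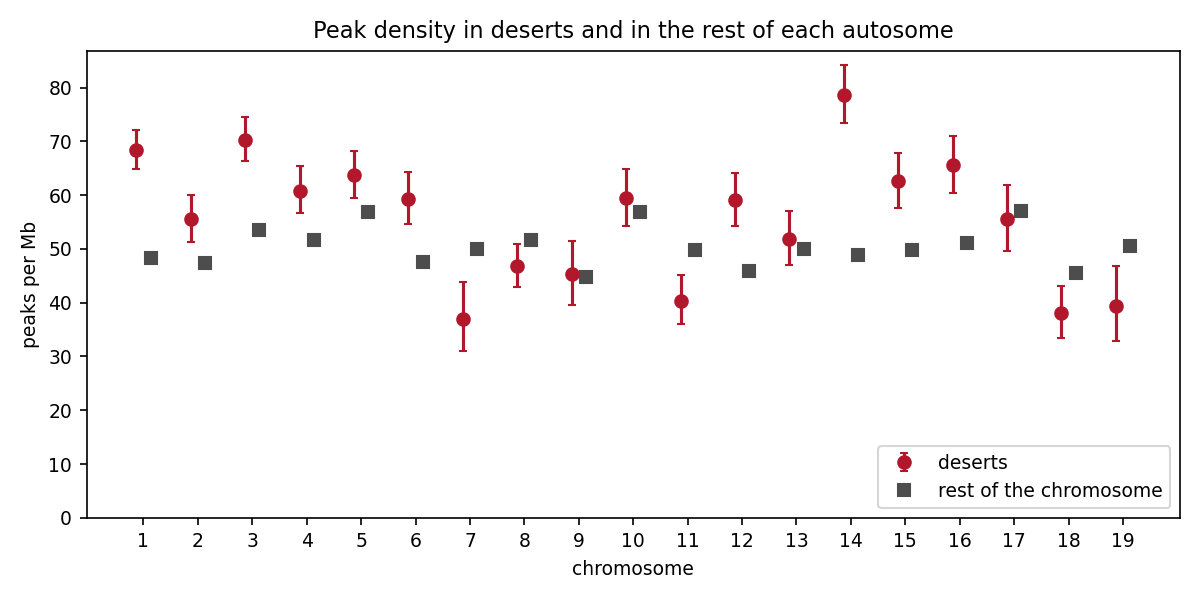
Peaks per Mb in deserts (red circles, 95% Poisson intervals) and in the rest of the same chromosome (grey squares) for each autosome. Deserts range from 37.0 on chromosome 7 to 78.6 on chromosome 14, while the rest stays between 44.7 and 57.0.

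The 61 largest deserts differed 6.51-fold in density, by more than the counting intervals of the extremes. Their quartiles were 49.8, 74.3 and 93.4 peaks per Mb. The densest, on chromosome 5 (chr5:78879995-79407423), held 61 peaks in 527 kb, or 116 per Mb (88.5 to 149). Its nearest protein-coding genes were Igfbp7, 1472 kb from the core, and Adgrl3, 1612 kb from it. Igfbp7 encodes a secreted binding protein, and Adgrl3 a latrophilin adhesion receptor of synapses. Next came a core of 760 kb between D3Ertd751e and Pcdh10, a protocadherin gene, with 112 per Mb, and one between Olfm4 and Pcdh17 (chr14:82222227-83305630) with 108. The core between Olfm4 and Pcdh17, 1138 kb from Pcdh17, held 117 peaks, the most of any desert. A core between Brinp3 and Pla2g4a also reached 108, and one between Ptprd and Tyrp1 on chromosome 4 reached 107 with 105 peaks. Ptprd encodes a receptor phosphatase that organises synapses, and Tyrp1 an enzyme of melanin synthesis.

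The sparsest of these deserts held few peaks over as long a stretch. Between St3gal1, a sialyltransferase gene, and Zfat, a zinc finger gene (chr15:67477095-67983713), there were 9 peaks in 507 kb, or 17.8 per Mb (8.12 to 33.7). Between Bmp2, which encodes a secreted growth factor, and Hao1, which encodes a peroxisomal oxidase, there were 10 peaks, or 19.7 per Mb (9.45 to 36.2). Cores between Sqor and Sema6d, between Kctd16 and Prelid2 and between Kif2b and Car10 had 21.8, 27.1 and 35.2 per Mb. The first 4 of these 5 held no peak of at least 40 fragments among 9 to 17 peaks each. The 5 densest held 6 to 14 such peaks among 61 to 117 peaks each. Over all desert peaks 10.9% reached 40 fragments, and whether the share differed between sparse and dense deserts was not tested. Across the 61 deserts, overall density and the density of such tall peaks had a Pearson r of 0.71 and a Spearman rho of 0.69, given as a description because the tall peaks are part of the total and all come from 1 library.

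The longest core, 1268 kb on chromosome 4 between Epha7, an ephrin receptor gene, and Map3k7, a kinase gene, held 85 peaks or 67.0 per Mb (53.5 to 82.9). A core between the cadherin genes Cdh6 and Cdh9 on chromosome 15 measured 1111 kb and held 106, or 95.4 per Mb. Another core between D3Ertd751e and Pcdh10 measured 1072 kb with 88 peaks, and one between Lcorl and Slit2, an axon guidance ligand gene, measured 1019 kb with 37. Cores of like length thus held from 37 to 117 peaks. In the longest core lay the peak farthest from any gene, 731 kb from the nearer end, on chromosome 4 (chr4:29933066-29933751) with 44 fragments and a fold of 10.9 (8.02 to 14.6).

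**Figure D5:**
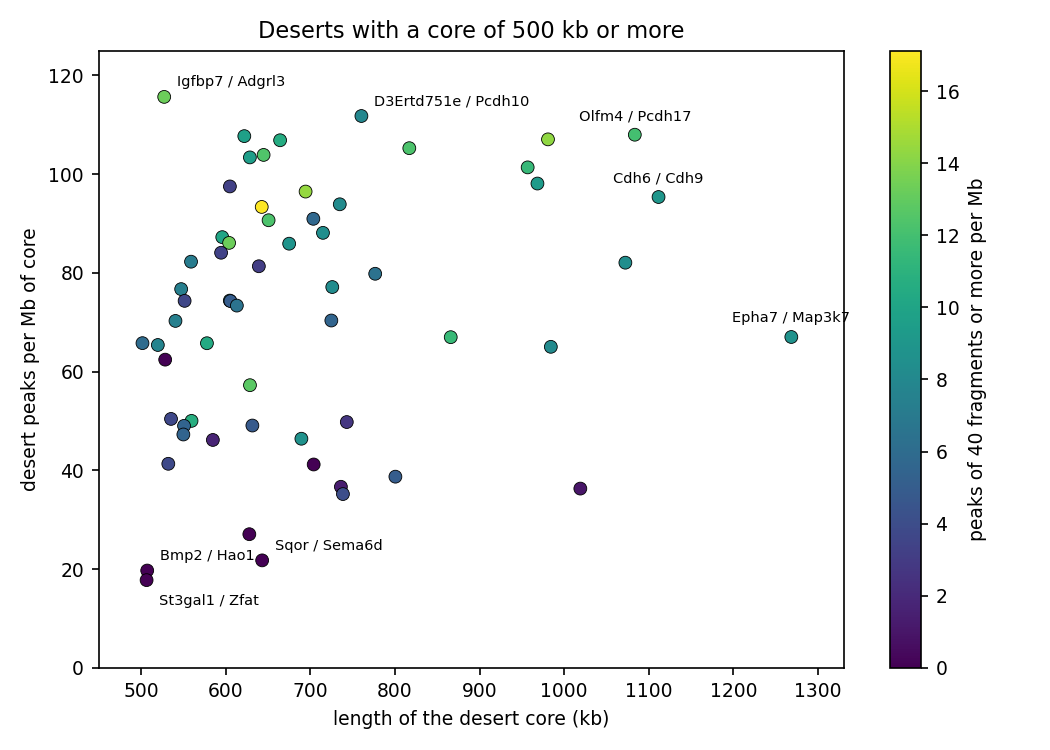
Desert peaks per Mb against core length in kb for the 61 deserts with a core of at least 500 kb, coloured by the density of peaks of 40 fragments or more; labels, given for some deserts, name the nearest protein-coding gene on either side. Densities run from 17.8 (St3gal1 / Zfat) to 116 (Igfbp7 / Adgrl3) and the longest core, Epha7 / Map3k7, lies at 67.0.

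Annotated neighbours of desert peaks were mostly not protein-coding. The nearest annotated gene was a pseudogene for 47.9% of them, a long noncoding RNA gene for 24.2% and a protein-coding gene for 12.0%. Of the 47038 gene records on chromosomes 1 to 19, 20661 were protein-coding, and the same shares are not given here for other peaks. The median distance of a desert peak was 168 kb to any gene and 548 kb to a protein-coding gene, with 2205 kb as the largest. Protein-coding neighbours are therefore given above and below as the nearest on either side of a desert, with no claim that they are connected with its peaks.

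As the gene lists were drawn up here, deserts beside genes of neuronal adhesion and synapses were denser in peaks than deserts beside developmental regulators. In a list of 90 adhesion and synapse genes, 71 flanked a desert, compared with 5.56% of all 20661 protein-coding genes. This list and the next were drawn up from genes known to lie beside deserts, so these shares are not a result. They were also chosen with earlier results of these data known, so the densities below describe the lists and test nothing. Their 278 deserts held 4169 peaks, or 72.7 per Mb (70.5 to 74.95), against 59.0 over all deserts. Pcdh17, a protocadherin gene, flanked 282 desert peaks at 84.3 per Mb (74.7 to 94.7). Pcdh9, another protocadherin gene, flanked 242 at 87.9, and Cdh9 flanked 235 at 89.6.

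Of 108 autosomal genes for developmental transcription factors and signals, 46 flanked a desert, and their 86 deserts held 534 peaks, or 47.1 per Mb (43.2 to 51.3). Zeb2, a zinc finger repressor gene, flanked 66 peaks at 55.0 per Mb (42.5 to 70.0), and Nr4a2, a nuclear receptor gene of dopamine neurons, flanked 52 at 76.0. Over members with at least 100 kb of desert, the median was 73.6 per Mb for 59 adhesion and synapse genes, 36.7 for 31 developmental genes and 47.7 for all 701 protein-coding genes. Peaks of at least 40 fragments stood at 7.60 per Mb beside adhesion genes (436 of 4169 peaks) and 5.29 beside developmental genes (60 of 534). Over all deserts they stood at 6.42 per Mb and were 10.9% of desert peaks. No intervals were computed for these tall-peak densities, and whether they differ was not tested.

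Among deserts of like length, those beside adhesion genes also had more peaks per Mb than those beside developmental genes. As the lists are the same, these values too describe them and test nothing. With cores of 100 to 250 kb, deserts beside adhesion genes had 69.9 peaks per Mb (65.4 to 74.5), those beside developmental genes 45.3 (39.5 to 51.7) and those beside neither 45.7 (43.5 to 47.9). With cores of 250 to 500 kb, the values were 65.5 (61.8 to 69.3) beside 53 adhesion deserts, 45.2 (37.6 to 53.8) beside 8 developmental deserts and 57.4 beside neither. With cores of at least 500 kb they were 85.1 (81.2 to 89.3), 49.3 (39.2 to 61.2) from 3 deserts and 64.2. Single deserts overlapped widely between the lists, and base composition and repeat content were not measured here. Of 52 autosomal germ cell genes only Kit, which encodes the stem cell factor receptor, flanked a desert, with 5 peaks in 61.8 kb.

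Single peaks of very high fold were rare in deserts. The highest, on chromosome 3 (chr3:56575405-56575816), was 412 bp wide with 111 fragments and a background of 2.65, which after adding 1 to each is a fold of 30.6 (25.3 to 36.9). It lay 392 kb from Nbea, a neuronal scaffold gene, and 710 kb from Tm4sf1, a membrane protein gene. The second (chr3:5860293-5860806) had 161 fragments (137 to 188), the highest desert pileup, and a fold of 22.5 (19.2 to 26.2), 282 kb from Pex2, a peroxisome assembly gene. Both were narrower than the 800 bp at which desert peaks otherwise had a median of 35 fragments, and whether they lie in multi-copy sequence was not tested. The next 6 had folds of 14.5 to 17.9 with 50 to 58 fragments. Of these, 4 were on chromosome 5, which held 816 of the 10681 desert peaks. The nearest protein-coding genes of those 4 were Adgra3, an adhesion receptor gene, at 205 kb, Pcdh7 at 801 kb, 4933402N22Rik at 198 kb and Gnai1, a G protein gene, at 312 kb. The other two were on chromosome 12, 682 kb from Gm40892, and on chromosome 8, 365 kb from Fat1, an atypical cadherin gene.

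Pileup and fold singled out different peaks. On chromosome 15 (chr15:33831514-33833603), 145 kb from Tspyl5, a peak of 2090 bp had 88 fragments (70.6 to 108) but a fold of 5.26 (4.23 to 6.46), over the highest background of any desert peak, 15.9. The remaining peaks among the 5 highest by pileup had 86 fragments on chromosome 1 (chr1:113351975-113353358), 1487 kb from the nearest protein-coding gene, Dsel, and 80 on chromosome 2 near Lrrc4c, a gene for a netrin-G ligand.

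The widest desert peaks were of moderate fold. The widest, 2498 bp (chr1:145936066-145938563), lay 559 kb from Brinp3 with 54 fragments and a fold of 5.82 (4.40 to 7.56). The next 4 measured 2188 to 2464 bp, with 46 to 53 fragments and folds of 4.798 to 6.07. Their nearest protein-coding genes were Khdrbs2, S100a7l2, Adgrb3 and Kcnt2, at 212 to 933 kb. The 5 widest had backgrounds of 6.75 to 10.3 fragments, against a median of 2.26 over all desert peaks. The part of background in their folds was not tested. Of the 5 widest, 4 were on chromosome 1, which held 1337 of the 10681 desert peaks, the most of any autosome. The 3 desert peaks nearest the 100 kb limit had 21 to 23 fragments and folds of 3.99 to 7.71, and the 3 peaks nearest it on the other side had 17 to 48 fragments and folds of 5.11 to 11.0.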

How the data were processed

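H3K4me3 was profiled in 1 CUT&RUN library. The submitters' processing notes name MACS2 2.1.0 beside Bowtie2 2.5.0, deepTools 3.5.1, bedtools 2.27.1, SAMtools 1.16.1 and Trim Galore, with the builds mm10 and sacCer3. Tool settings and library depth were not given in the sources used. The authors deposited peaks of this library with a fold of summit pileup against local background. They also deposited the −log10 p, the −log10 q and a score derived from it. These values are the authors' and are compared between peaks of this list only.

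Whole-number summit pileups and backgrounds were recovered from fold and −log10 p by assuming a fold of (pileup + 1) over (background + 1) and a Poisson upper tail, with pileups up to 2000 tried. This solved 135053 of 135064 peaks within 0.0001, including all 10681 desert peaks.

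Genes came from RefSeq for GRCm38.p6, the build of mm10. Of 47038 gene records on chromosomes 1 to 19, 328 lay below position 3000000, where there were 0 peaks. Lengths were therefore counted from that position, and leaving these records out kept the number of members at 10681. Lengths include internal assembly gaps.

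Shares have 95% Wilson intervals, counts and densities exact Poisson intervals, density ratios exact binomial intervals. They cover counting error only and treat the counted peaks or fragments as independent. Differences between libraries, or between single deserts of a group, are not covered. No molecular identifiers are given. With 1 library there was no test and no p-value. Members, gene lists and rules were chosen with earlier results of these data known. Named regions were the 8 highest by fold, 5 by pileup and 5 by width, those nearest the limit, the extreme deserts and the 3 members of each gene list with most desert peaks. One such list member is not reported here. The peak farthest from genes and the longest empty desert were named after their values were seen. Alternatives changed distance, annotation, peak thresholds or extent, chromosome ends and join gaps. The scripts were tested on simulated data. Software was scipy 1.17.1, pandas 2.3.3, numpy 2.4.6 and matplotlib 3.10.9 on Python 3.11.15.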

Additional observations from a re-analysis of the deposited data

How the results depend on the processing

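With 1 library, the alternatives change only what is counted. Against 10681 desert peaks there were 19801 beyond 50 kb, 3907 beyond 200 kb, 35094 with protein-coding genes only, 6209 at −log10 q of at least 10, and 6348, 3012 and 1164 with at least 20, 30 and 40 fragments. The density ratio of 1.17 to the rest reversed to 0.928, 0.669 and 0.527 with at least 20, 30 and 40 fragments, and was 1.09 beyond 50 kb, 1.35 beyond 200 kb, 1.07 with protein-coding genes only and 1.06 at −log10 q of at least 10. Median fold was 6.20 beyond 200 kb, 6.73 and 7.91 at −log10 q of at least 5 and 10, and 7.83, 9.10 and 9.44 with at least 20, 30 and 40 fragments. The share with a fold of at least 10 was 7.17% beyond 200 kb, 8.89% and 14.1% at those q thresholds, and 13.8%, 29.0% and 37.1% at those pileups. A stricter threshold raises the last 2 measures by its own construction. The settings of 30 and 40 fragments were chosen after seeing the data. Taking whole peaks beyond 100 kb, or leaving out chromosome ends, moved none of these 4 results beyond its counting interval. Joining over 3000 and 5000 bp put 36.7% and 48.0% of desert peaks in a joined group, against 30.1% over 1000 bp. The share of deserts with a peak, 85.1%, was 78.7% beyond 50 kb, higher than 85.1% beyond 200 kb and with protein-coding genes only, 79.8% at −log10 q of at least 10, and 66.1% and 46.8% with at least 30 and 40 fragments. No paired analysis was possible because there is 1 library with values. Depth limits small deserts: an empty core is shown only as few peaks per Mb.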

Other observations

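Deserts of the X chromosome, which exists in 1 copy in male cells, held 755 peaks by the same rule. Between genes they numbered 51.0 per Mb (47.5 to 54.8), against 48.1 per Mb in the rest of the X. Their median pileup was 18 fragments on the X and 22 in autosomal deserts, a ratio of 0.818. Median width was 359 bp on the X and 496 bp in autosomal deserts, and median fold was 5.78 and 6.42 in the same order. The tallest X desert peak had 47 fragments, 5 (0.662%) reached 40 fragments and 23 (3.05%) had a fold of at least 10. These shares were 10.9% and 8.18% in autosomal deserts, and 23.1% and 6.37% over all autosomal peaks. The lowest background of the list held for 67.9% of X desert peaks and 44.7% of autosomal ones.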
